A study of Mus musculus with 6 samples.

Results

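The response of mouse dermal fibroblasts to 2 h of interleukin-1 (IL-1) was read on 2 of the study's 6 arrays, taken by their labels as the pair that carried RNA of cells treated for 2 h. The other 4 arrays carried cells treated for 1 h or 4 h. Every array was a 2-colour Agilent array with treated RNA in one dye and untreated RNA (0 h) in the other. The treated cells were C57BL/6 dermal fibroblasts given IL-1 at 20 ng/ml for 2 h, the untreated cells were C57BL/6 dermal fibroblasts at 0 h, and both were grown in DMEM with antibiotics and serum. The labels give neither the form of IL-1 nor the passage, the age of the mice or the number of cultures. Replicate 1 carried the treated RNA in Cy5 and replicate 2 carried it in Cy3, so the pair is a dye swap of the same RNAs and was counted as 1 sample.

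IL-1 binds its receptor on the cell surface, and the adaptor MYD88 and IRAK kinases pass the signal on to the NF-kB and MAP kinase pathways. NF-kB factors are held in the cytoplasm by IkB proteins, and once released they switch on genes for chemokines, cytokines and adhesion molecules as well as for their own inhibitors. In skin, fibroblasts that meet IL-1 are known as a source of chemokines and IL-6 that draw leukocytes to a wound or an infection.

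Levels at 2 h are given as the log2 ratio of treated to untreated signal, 1 being 2-fold, in the direction that the labelled dyes give. In the authors' deposited value table each column of a pair equals the processed log2 ratio of the other array of that pair (100% of spots within 0.001). If the scanner files rather than those columns are exchanged, every sign given here turns. Taken as treated over untreated, the deposited ratios gave the same direction, and all of the 40 higher genes below were higher in them. After filtering, 21275 genes were measured, 16678 of them with a gene symbol. Each mean is given ± the difference between the orientations divided by 2, a technical error that includes the dye effect of the gene. Its median over all genes was 0.0641 and its 95th percentile was 0.195. With 1 treated sample against the untreated RNA there is no test at 2 h, so genes were counted by size on both arrays. The spread among cultures was not measured.

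All 12 fibroblast markers listed (among them Col1a1, Pdgfra, Dcn and Thy1) were well above background in both channels of both arrays, with summed signals of 1822000 to 3476000. The list of 13 macrophage and other leukocyte markers summed to 44100 to 47550, and 12 of them were measured, at log2 ratios of -0.09 to 0.21. Keratinocyte markers summed to 38410 to 39820 (10 of 12 measured) and endothelial markers to 10010 to 12290 (7 of 10 measured). Mast cell, melanocyte, adipocyte and skeletal muscle lists summed to 1395 to 37340. None of the measured markers of these other cell types passed a size rule. The leukocyte marker Itgam, the keratinocyte markers Cdh1 and Epcam and the endothelial markers Pecam1, Cdh5 and Tie1 did not pass the filter. The background flag is permissive, since up to 9.24% of 314 negative control spots carried it in Cy3. Of the fibroblast markers only Twist2 passed the 2-fold rule (1.37 ± 0.15). In RNA from a whole culture, fewer cells of a kind and less RNA per cell cannot be told apart.

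At 2 h, 40 of 21275 genes (0.188%) were at least 2-fold higher on both arrays and 0 (0%) were at least 2-fold lower on both. With the smaller size of 0.5 (1.41-fold), 131 genes (0.616%) were higher and 25 (0.118%) were lower. These shares over all genes are the reference for the list counts below. The 40 genes included 8 chemokines, 8 members of the NF-kB pathway, 2 cytokines and 2 adhesion genes. Of the 40, 31 belonged to the 19 gene lists used here, which hold 526 measured genes. The lists were chosen with earlier results of these data known, so this overlap is a description. The median log2 ratio of the 40 was 1.71, 14 were at least 4-fold higher in the mean and 3 at least 8-fold. The other 9 were Micall2, Twist2, Tnfaip2, Abtb2, Noct, Plscr1, Rnd1 and the array names LOC547372 and NAP066348-1, which have no symbol. The counts move with the processing. With the scanner's own processed signals there were 82 higher and 4 lower genes (234 and 92 at the smaller size), and centring each array on its median gave 21 higher, all among the 40, and 0 lower. On replicate 2 alone 67 genes were higher and 4 lower, and on replicate 1 alone 42 were higher and 16 lower. The 40 are among the higher genes in each case by definition, since they had to pass on both arrays.

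**Figure D1:**
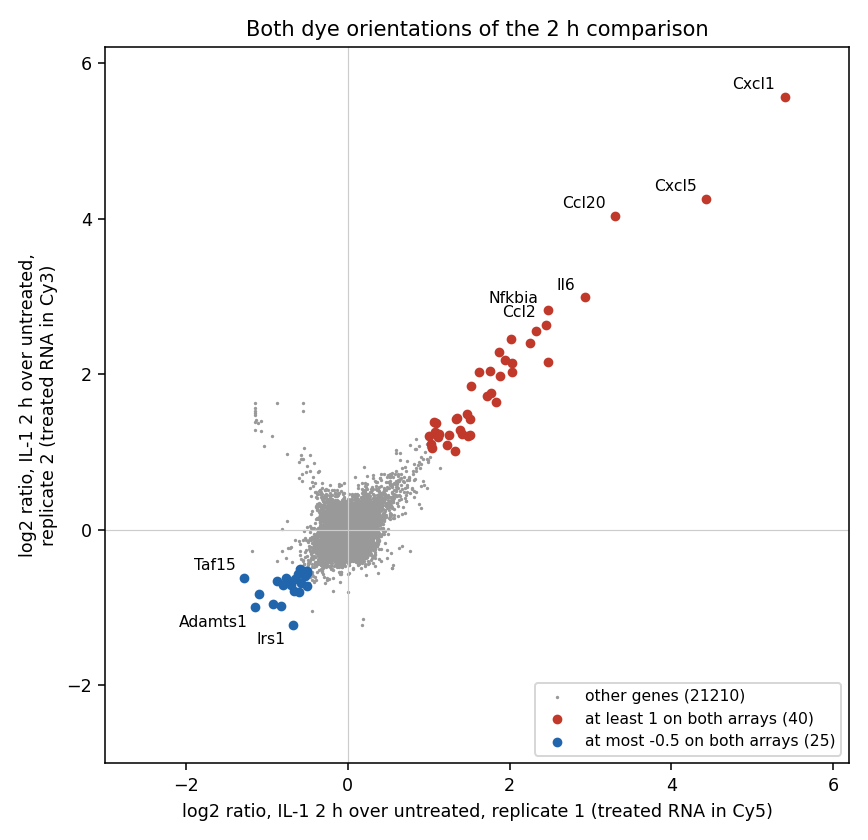
Log2 ratio of IL-1 2 h over untreated on replicate 1 (x axis, treated RNA in Cy5) against replicate 2 (y axis, treated RNA in Cy3), 1 point per gene. The 40 higher genes lie near the diagonal up to Cxcl1 at 5.40 and 5.57, the 25 lower genes reach -1.07 in the mean, and 28 genes have opposite signs of at least 0.5 in the upper left.

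Over all genes the log2 ratios of the 2 orientations correlated at 0.362, a description across genes, which are not independent replicates. In the opposite corner, 28 genes were at -0.5 or below on replicate 1 and at 0.5 or above on replicate 2. Of these, 27 had a saturated spot on a 2 h array, and by the size rules none of them can be counted as higher or lower. Among the 40 higher genes 1 (Ccl2) had a saturated treated spot, and among the 25 lower genes there were 0.

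Chemokines held the largest ratios. Of the 24 measured (29 listed), 8 passed the 2-fold rule and 11 the smaller one, 0 were lower, and the list median was 0.46 against 0.0033 over all genes. The CXC chemokines that attract neutrophils through CXCR2 are described first. Cxcl1 stood at 5.40 on replicate 1 and 5.57 on replicate 2, with a mean of 5.49 ± 0.083 or 44.8-fold. Its processed signal went from 1304 in untreated to 83781 in treated RNA on replicate 1, and from 1348 to 83020 on replicate 2. Cxcl5, of the same family, was at 4.43 and 4.25 (4.34 ± 0.092, 20.3-fold). Cxcl3 was at 1.87 and 2.28, while Cxcl2 missed the 2-fold rule through a single array, at 0.77 and 1.09. The Cxcl2 signal was dim, and with the scanner's processed signals its mean was 2.46 (5.50-fold). For all of these CXC chemokines the arrays had the same sign, and their ranges did not include 0.

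The promoter windows of Cxcl1 and Cxcl3 are shown because both hold a kappaB consensus at nearly the same distance from the start. Each sequence is the 250 bases before the gene start from RefSeq (GRCm38.p6), 5′ to 3′ in the direction of the gene, and capitals mark bases that match the consensus on either strand. The Cxcl1 window is chr5:90890995-90891244, plus strand, and its match begins 71 bases before the start. The Cxcl3 window is chr5:90785851-90786100, plus strand, and its match begins 73 bases before the start.
Cxcl1: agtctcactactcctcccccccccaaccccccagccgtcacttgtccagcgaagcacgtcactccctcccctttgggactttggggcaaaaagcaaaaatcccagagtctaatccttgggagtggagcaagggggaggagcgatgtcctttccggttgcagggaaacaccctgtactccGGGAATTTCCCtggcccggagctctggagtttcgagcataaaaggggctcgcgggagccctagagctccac
Cxcl3: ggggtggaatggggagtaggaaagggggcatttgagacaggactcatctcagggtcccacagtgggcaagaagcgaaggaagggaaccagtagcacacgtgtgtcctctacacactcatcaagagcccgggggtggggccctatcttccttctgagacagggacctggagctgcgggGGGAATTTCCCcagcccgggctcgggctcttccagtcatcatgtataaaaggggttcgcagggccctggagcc

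Among other chemokines, Ccl20, the ligand of CCR6 that attracts dendritic cells and T cells, differed most between the arrays, at 3.31 and 4.04 (3.67 ± 0.36, 12.8-fold). With the scanner's processed signals its mean was 5.03 (32.7-fold), above that of Cxcl5 on the same scale (4.73, 26.5-fold). The monocyte attractants Ccl2 and Ccl7, ligands of CCR2, were at 2.45 and 2.63 and at 2.25 and 2.40. The treated Ccl2 spot was saturated on 1 array. Cx3cl1 (fractalkine), a membrane-bound attractant, stood at 1.34 and 1.43, and Cxcl10, a ligand of CXCR3, at 1.49 and 1.21. Cxcl16 (0.84) and Ccl9 (0.64) passed only the smaller rule. Ccl11 (0.53), Ccl5 (0.39) and Ccl8 (0.29) did not pass it. Cxcl12 (-0.03), the stromal ligand of CXCR4, and Cxcl14 (-0.31) did not pass either.

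The Ccl20 window (chr1:83116516-83116765, plus strand) is shown as a chemokine window with a kappaB match outside the CXC family, and its match, on the opposite strand, begins 80 bases before the start.
Ccl20: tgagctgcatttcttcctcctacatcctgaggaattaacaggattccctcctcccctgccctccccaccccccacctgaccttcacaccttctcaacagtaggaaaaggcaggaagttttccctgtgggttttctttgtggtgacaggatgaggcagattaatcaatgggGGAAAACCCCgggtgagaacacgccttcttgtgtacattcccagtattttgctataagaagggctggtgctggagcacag

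Members of the NF-kB pathway were the next group. Of 25 measured (27 listed), 8 were at least 2-fold higher and 11 passed the smaller rule, 0 were lower, and the list median was 0.52. Nfkbia and Bcl3, of the IkB family, stood highest. Nfkbia, which encodes IkB-alpha, was at 2.48 and 2.82 (2.65 ± 0.17, 6.28-fold). Bcl3, a nuclear partner of p50 and p52, was at 2.02 and 2.46, Nfkbiz, which encodes the nuclear protein IkB-zeta, at 2.03 on both arrays, and Nfkbie (IkB-epsilon) at 1.72 and 1.73. Nfkbib (0.52) did not pass a size rule, nor did Nfkbid (0.13).

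Among the subunits, Relb was highest, at 1.95 and 2.18 (2.06 ± 0.12). Nfkb1 and Nfkb2, the precursors of p50 and p52, were at 1.16 ± 0.071 and 1.10 ± 0.096, and Rela, which encodes p65, was at 0.65. Nfkb1 had 4 kept probes, and the other 3 read 0.86, 0.81 and 0.26. Tnfaip3, which encodes the ubiquitin-editing inhibitor A20, was at 1.03 and 1.11. Its binding partner Tnip1 was at 0.55, and the ubiquitin ligase gene Birc3 was at 0.98, with a second, dimmer probe at 0.08. The kinases of the IKK complex lay near 0, with Ikbkb at 0.13, Chuk at 0.03 and Ikbkg at 0.03. Map3k14, which encodes the kinase NIK, was at -0.38.

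The Nfkbia window (chr12:55492648-55492897, minus strand) is shown since this gene had the largest ratio of the pathway, and its match lies on the opposite strand and begins 29 bases before the start.
Nfkbia: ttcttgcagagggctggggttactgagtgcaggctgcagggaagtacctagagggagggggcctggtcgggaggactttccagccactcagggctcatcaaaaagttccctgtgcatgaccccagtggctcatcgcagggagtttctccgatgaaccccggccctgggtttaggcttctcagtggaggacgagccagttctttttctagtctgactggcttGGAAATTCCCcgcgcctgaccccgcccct

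**Figure D2:**
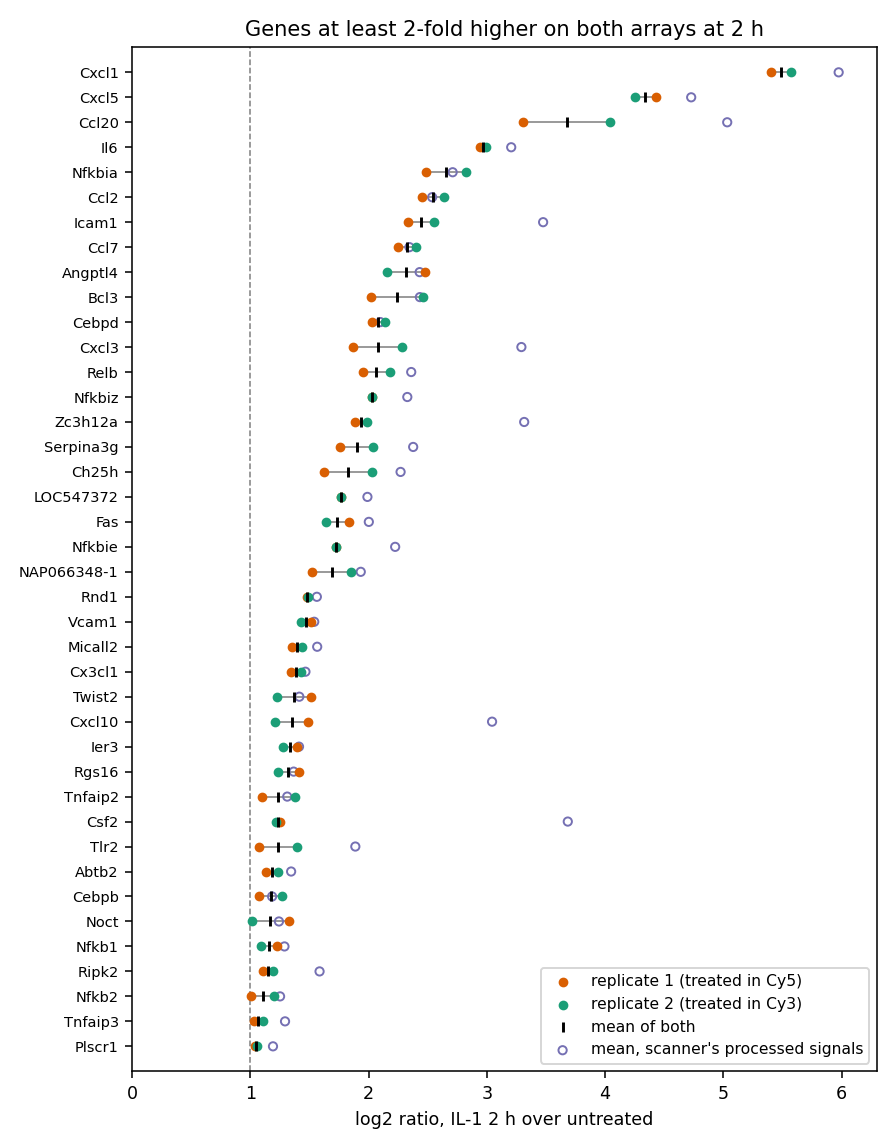
Log2 ratio of IL-1 2 h over untreated (x axis) for the 40 genes at least 2-fold higher on both arrays, with 1 point per array, a bar for the mean and an open circle for the mean of the scanner's processed signals. The open circle lies at least 1 to the right of the mean for 6 genes, Ccl20, Icam1, Cxcl3, Zc3h12a, Cxcl10 and Csf2.

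Most cytokine and growth factor genes passed no size rule. Of 43 measured (47 listed), 2 passed the 2-fold rule, 5 the smaller one upward and 1 downward, with a list median of 0.04. Over all genes the shares were 0.188%, 0.616% and 0.118%. Il6, the cytokine that acts through gp130, was at 2.94 and 2.99 (2.96 ± 0.025, 7.80-fold), and its processed signal went from 2550 to 23429 on replicate 1 and from 2765 to 25590 on replicate 2. Csf2, which encodes GM-CSF, was at 1.25 and 1.22. The untreated Csf2 signal was well above background on 1 of the 2 arrays, and with the scanner's processed signals its mean was 3.68. Vegfc (0.83), Csf1 (0.81) and Vegfa (0.76) passed the smaller rule. Bdnf, a neurotrophin, was lower, at -0.72 and -0.67. Lif (-0.01), Il11 (0.15), Tnf (0.02), Il1a (0.04) and Csf3 (0.25) passed none, and Il1b did not pass the filter on dim probes.

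The Il6 window (chr5:30012864-30013113, plus strand) is shown because Il6 had the largest ratio among cytokines. Its kappaB match begins 44 bases before the start, and an AP-1 motif (TGANTCA), left in lower case, begins 249 bases before it.
Il6: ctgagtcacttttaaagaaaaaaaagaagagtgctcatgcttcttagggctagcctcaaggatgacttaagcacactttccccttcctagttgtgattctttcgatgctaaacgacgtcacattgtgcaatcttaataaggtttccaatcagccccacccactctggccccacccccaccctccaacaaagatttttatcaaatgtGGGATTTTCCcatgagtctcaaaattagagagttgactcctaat

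Most genes for adhesion proteins passed no size rule. Of 21 adhesion genes, 2 passed the 2-fold rule and 3 the smaller one, with a median of 0.02. Over all genes the shares were 0.188% and 0.616%. Icam1, a ligand of leukocyte integrins, was at 2.33 and 2.55 (2.44 ± 0.11), but its second, dimmer probe read 0.76. Vcam1, the ligand of the integrin VLA-4, was at 1.52 and 1.43, with a second probe at 0.29. The proteoglycan gene Sdc4 was at 0.94, and no integrin gene passed a size rule. The death receptor gene Fas was at 1.83 and 1.64, with a second probe at 0.11. The genes of that list that passed the smaller rule were Casp4 (1.00), Gadd45b (0.98) and Cd40 (0.82).

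In the list of IL-1 and Toll receptor signalling, 2 of 26 measured genes (30 listed) passed the 2-fold rule. These were Tlr2, a receptor for bacterial lipoproteins, at 1.07 and 1.39, and Ripk2, the kinase that acts downstream of NOD receptors, at 1.11 and 1.19. Il1rl1, the receptor of IL-33, was at 0.58 and passed the smaller rule. The IL-1 receptor gene Il1r1 was at 0.72 and 0.45 and did not pass it on both arrays. The genes for the shared adaptors and kinases lay nearer 0, with Myd88 at 0.27, Irak1 at 0.04, Irak4 at -0.10 and Traf6 at 0.10.

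Transcription factor genes were found on both sides. Of 37 delayed transcription factors, 2 passed the 2-fold rule upward, 4 passed the smaller rule upward and 3 downward. Cebpd, a C/EBP factor known from the acute phase response, was at 2.03 and 2.14 (2.08 ± 0.057, 4.23-fold), and Cebpb at 1.08 and 1.26. Ets2 (0.98) and Irf5 (0.60) passed the smaller rule. Lower were Id4 (-0.93 and -0.96) and Id2 (-0.51 and -0.54), which encode inhibitors of basic helix-loop-helix factors, and Hes1 (-0.59 and -0.51), a repressor downstream of Notch. Irf1, an early NF-kB target, stood at -0.19.

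Of 33 immediate early genes, Ier3 (1.39 and 1.28) passed the 2-fold rule, Gadd45b (0.98) the smaller one, and Nr4a1 and Gadd45g were lower. The list median was 0.05. Nr4a1, an orphan nuclear receptor, was at -0.82 and -0.98. Gadd45g, a stress-response gene of the same family as Gadd45b, was at -0.88 and -0.66. The AP-1 genes Jun (-0.01), Junb (0.41), Fosl2 (0.62) and Fos (-0.38) and the early growth response gene Egr1 (-0.55) passed no size rule on both arrays.

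Genes that limit signalling or destroy mRNA were partly higher. Zc3h12a, which encodes the RNase Regnase-1 that cuts Il6 mRNA, was at 1.89 and 1.98, and Rgs16, a regulator of G-protein signalling, at 1.41 and 1.23. Errfi1, an inhibitor of EGF receptors, was at 0.94, Rc3h1, which encodes Roquin, at 0.65, and the phosphatase gene Dusp10 at 0.62. The second, dimmer probe of Rc3h1 read 0.06. In the same list of 27 measured genes the receptor kinase inhibitor Spry1 (-0.70 on both arrays) and Rgs4 (-0.76 and -0.62) were lower. The phosphatase gene Dusp1 had a mean of -0.54 and Zfp36 one of -0.12. Among 14 cytokine feedback inhibitors Cish alone passed the smaller rule, at 1.00 and 1.24 and just under the 2-fold rule on replicate 1, with Socs3 at 0.47 and Socs1 at 0.17.

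Secreted enzymes and lipid genes gave single large values. Angptl4, whose secreted protein blocks lipoprotein lipase, was at 2.47 and 2.16 (2.32 ± 0.16, 4.98-fold), and of 34 genes in the lipid, glucose and transport list only the hexokinase gene Hk2 (0.67) also passed upward. Ch25h, which makes 25-hydroxycholesterol, was at 1.62 and 2.03, and Serpina3g, a serine protease inhibitor, at 1.76 and 2.04. The serpin belongs to a family of close copies, so its value is uncertain as to the member. Has1, a hyaluronan synthase, was at 0.81, as the only gene of 35 in the fibroblast matrix list past a size rule. Col1a1 was at 0.13, Col3a1 at -0.30 and Fn1 at 0.38. Of 26 genes for prostaglandin, nitric oxide or redox enzymes, 0 passed the 2-fold rule and 4 the smaller one, namely the prostaglandin receptor Ptger2 (0.79), the cyclooxygenase Ptgs2 (0.66), the metallothionein Mt2 (0.65) and the heme oxygenase Hmox1 (0.55). Ptger2 was dim, and with the scanner's processed signals its mean was 2.22 (4.66-fold). Nos2 was at 0.09. The pentraxin gene Ptx3, at 0.98 and 1.11, lay just under the 2-fold rule, whereas Saa3 was at 0.41 and Lcn2 did not pass the filter.

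The small GTPase gene Rnd1, which loosens actin fibres, was at 1.48 on both arrays, while its 2 other probes read 0.11 and 0.17. Micall2, a partner of Rab GTPases, was at 1.35 and 1.44. Of the 40 higher genes, 9 had more than 1 kept probe, and in 5 of them (Abtb2, Fas, Icam1, Rnd1 and Vcam1) probes differed by over 1 log2 unit. The probe used for each gene was the brightest.

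In the interferon response list 0 of 26 measured genes passed the 2-fold rule, and Ifit1 (-0.01), Isg15 (-0.01), Rsad2 (-0.05) and Mx1 (0.00) lay near 0. The 3 that passed the smaller rule belong to antigen presentation, H2-K1 (0.65 and 0.90), H2-D1 (0.55 and 0.73) and Tapbp (0.61 and 0.55), which encodes tapasin. A second, dimmer probe of Tapbp read 0.11. The class I heavy chains are near-identical copies, and signal may be shared between their probes.

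**Figure D3:**
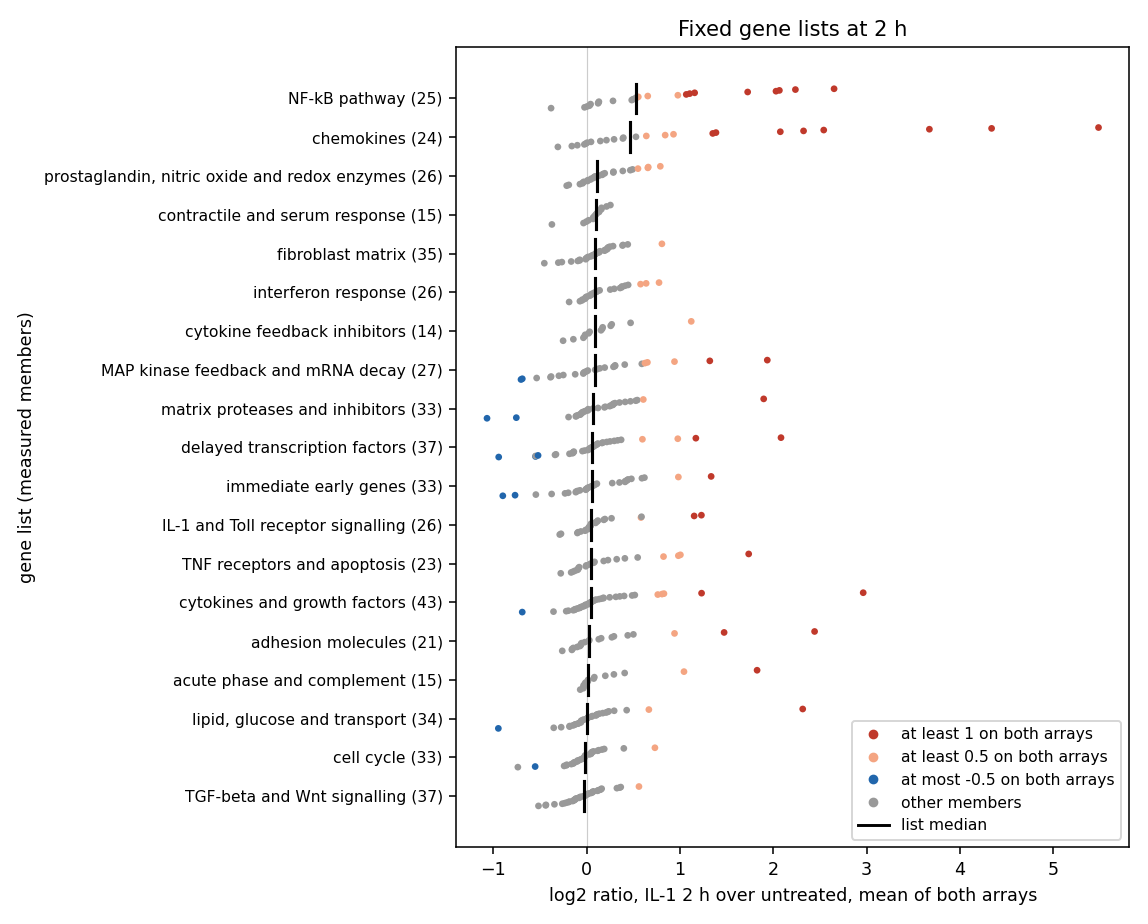
Log2 ratio of IL-1 2 h over untreated, mean of both arrays (x axis), for each measured member of the 19 gene lists (y axis, number measured in brackets), coloured by size rule, with a bar at each list's median. The bars of the NF-kB pathway (0.52) and the chemokines (0.46) stand to the right, and the other medians lie between -0.03 and 0.11.

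Of the 19 list medians, those of the NF-kB pathway (0.37 to 0.70) and the chemokines (0.29 to 0.79) stayed positive and above those of every other list under the settings tried for lists. All 19 lists were chosen with earlier results of these data known. Of the other 17 lists, 6 kept the sign of their median and 11 took both signs. With each array centred on its median in place of loess, it went for example from 0.09 to -0.07 for fibroblast matrix and from 0.05 to -0.04 for immediate early genes, and the median of all genes went from 0.0033 to -0.03.

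Lower genes lay closer to 0 than higher ones. The 25 genes at -0.5 or below on both arrays ranged from -0.52 to -1.07 in the mean, all had a symbol, and 12 belonged to the lists. Adamts1, a matrix protease, was lowest, at -1.15 and -0.99 (-1.07 ± 0.077), and its processed signal went from 23912 to 10551 on replicate 1 and from 22862 to 11264 on replicate 2. The related aggrecan-cleaving protease Adamts5 was at -0.81 and -0.70, whereas Adamts4 had a mean of 0.54. The second, dimmer probes of Adamts1 and Adamts5 read -0.53 and -0.17. Zfp503, a zinc finger gene, was at -1.10 and -0.82, and Irs1, the insulin receptor substrate, at -0.67 and -1.22, with a second probe at -0.22. Ephb3, an ephrin receptor, was at -0.73 ± 0.060, and the transmembrane gene Flrt3 at -0.71 ± 0.10, with a second probe at -0.28. Taf15, which encodes an RNA-binding protein, read -1.29 and -0.62, but a second, dimmer probe read 0.15. Among the lower genes not yet named were the ephrin gene Efnb2 (-0.54, second probe -0.24), the cyclin gene Ccne2 (-0.55) and the homeobox gene Dlx2 (-0.59). Of the 25 lower genes, 14 had more than 1 kept probe, and in 2 of them (Id4 and Bdnf) every probe passed the smaller rule.

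The motif counts cover genes with a RefSeq window here. Of the 40 higher genes 27 had 1, with 30 windows in all. The kappaB consensus was searched on both strands as 3 G, a purine, 2 of any base, 2 pyrimidines and 2 C. It was found in 15 of 30 windows (50%, exact 95% interval 31.3 to 68.7, which covers counting error only), from 13 genes, against 8.53% of 16569 windows of measured genes. At the smaller size rule 29.0% of 107 windows of higher genes held it, a set that includes the windows of the 40 genes. Among the lower genes 10.0% of 30 windows held it. Beside the genes shown above, the matches came from Cxcl10, Ier3, Nfkb2, Nfkbie, Serpina3g, Tlr2, Tnfaip2 and Tnfaip3. Windows of Icam1, Bcl3, Zc3h12a, Fas and Ch25h held no match. The AP-1 motif TGANTCA was in 20.0% of the windows of the 40 genes and in 5.59% of those of all measured genes. Several windows belong to 1 gene, and the genes were chosen by their ratios, so these shares are descriptions, and a match is not shown to be a bound site.

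**Figure D4:**
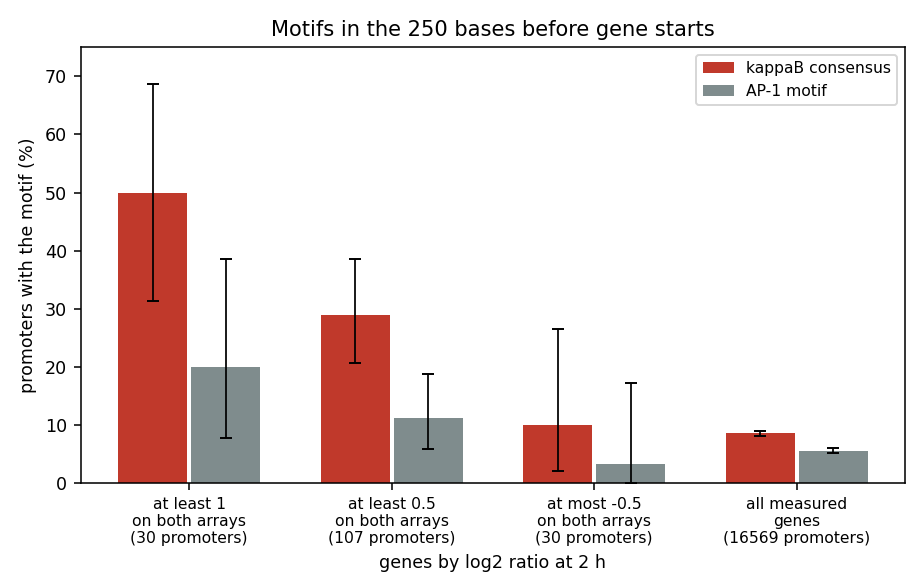
Share of 250-base windows before gene starts (y axis, percent) that hold the kappaB consensus or the AP-1 motif, for genes grouped by their log2 ratio at 2 h (x axis), with exact 95% intervals as error bars. The kappaB share is 50% in genes at least 2-fold higher and 8.53% over all measured genes. At the smaller rule, whose group includes the 2-fold genes, it is 29.0%.

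The study also treated cells for 1 h and 4 h, which allows 2 h to be set between its neighbours, although all 3 comparisons share the untreated condition. Of the 40 genes, 16 had their highest mean at 1 h, 16 at 2 h and 8 at 4 h. Over all 21275 genes the highest mean fell at 1 h for 7106, at 2 h for 6460 and at 4 h for 7709. Some placements were near ties, such as Twist2 (1.37 at 2 h and 1.36 at 4 h). Nfkb1 was placed at 2 h by its brightest probe (0.78, 1.16 and 1.04 at 1, 2 and 4 h). Its other probes read 1.36, 0.86 and 0.63, then 1.32, 0.81 and 0.58, then 0.25, 0.26 and 0.21. Highest at 2 h, by at least 0.2 above both other times within both orientations, were Cebpd (1.44 at 1 h, 2.08 at 2 h and 1.23 at 4 h), Angptl4 (1.66, 2.32 and 1.89), Ch25h (1.53, 1.83 and 1.04), Abtb2 (0.76, 1.18 and 0.56) and Ripk2 (0.76, 1.15 and 0.47). With a step of 0.5 only Cebpd did so. A second, dimmer probe of Abtb2 read 0.08, 0.0007 and 0.01. Il6 had its highest mean at 2 h as well (2.51, 2.96 and 2.73).

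The mean at 2 h lay below that at 1 h and above that at 4 h for Nfkbiz (3.37, 2.03 and 1.18), Tnfaip3 (2.36, 1.07 and 0.35) and Rnd1 (2.08, 1.48 and 0.43). The opposite order, with the highest mean at 4 h, was seen for Cxcl5 (3.62, 4.34 and 4.71), Serpina3g (1.27, 1.90 and 2.55) and Plscr1 (0.59, 1.05 and 1.41). Ccl7 was at 2.36, 2.32 and 2.34, and its second probe at 2.26, 2.24 and 2.23.

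Over all genes, 2 h lay above 1 h and 4 h by this step for 19 (0.0893%) and below both for 15 (0.0705%). Among the latter were 3 of the 4 Id genes, Id1 (0.43, -0.15 and 0.27), Id2 (-0.16, -0.52 and -0.09) and Id3 (0.37, 0.07 and 0.35). Hes1 (-0.07, -0.55 and -0.27), Smad6 (-0.18, -0.44 and -0.15), Dusp1 (-0.31, -0.54 and -0.10) and the kinase gene Sgk1 (0.15, -0.27 and 0.09) were others. By its brightest probe Id4 did not follow this order (-1.09, -0.94 and -0.26). Its second, dimmer probe was lowest at 2 h (-0.56, -0.68 and -0.17), but by less than the step against 1 h. These genes were singled out after their values were seen.

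**Figure D5:**
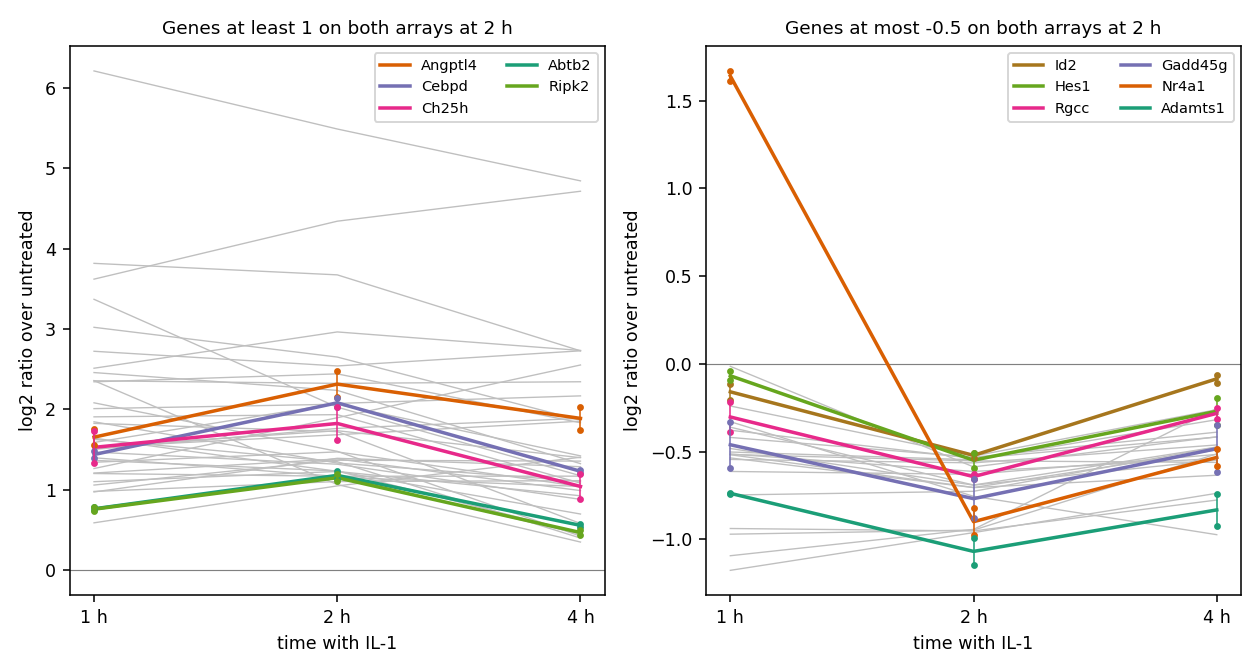
Log2 ratio over untreated (y axis) at 1, 2 and 4 h of IL-1 (x axis) for the 40 higher genes (left) and the 25 lower genes (right), 1 line per gene through the mean of both arrays. Coloured lines with a point per array are the genes whose 2 h value lay outside both other times by at least 0.2 in both orientations, among them Cebpd at 2.08 and Nr4a1 at -0.90.

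A test of 2 h against the mean of 1 h and 4 h (limma on the 3 averaged samples, with 1 residual degree of freedom) called 0 genes higher and 0 lower at a Benjamini-Hochberg adjusted p of 0.05 (0% and 0%). Of the 21275 genes tested, 399 had an unadjusted p under 0.05 by limma, 249 higher and 150 lower at 2 h. This is less than the share of 0.05 that would fall there if no gene differed. The fit on the 6 single arrays with the replicate number as a block also called 0. Cebpd had the smallest p, with a difference of 0.75, an adjusted p of 1 by limma and an unadjusted p of 0.000563. None of the differences in time given above passed this test, in which the difference between 1 h and 4 h counts as spread.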

How the data were processed

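Total RNA of cultured mouse dermal fibroblasts, untreated or given IL-1, was labelled and hybridised to 2-colour Agilent arrays as dye swaps, per the labels' protocols. The intensity columns used are each spot's mean brightness and local background, read with Agilent Feature Extraction 7.5.1, per the file headers. The processed intensities had background subtracted after spatial detrending and dyes balanced by a linear and lowess step, per the file headers. The deposited value table holds log2 ratios, found here to equal those of the processed signals of the other array of each pair. Scale is thus known, and direction rests on the labelled dyes. Its 2 h columns had medians of -0.0309 and 0.0311. For the probes' genome build the sources used here give no name.

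Here limma's normexp (offset 50) on the mean signals was followed by loess within each array, in limma 3.58.1 and R 4.3.3, control spots having weight 0. Controls and outlier flags were dropped, saturated spots kept and spots of a probe averaged. Of 41174 probes, 30634 were kept, those flagged well above background throughout 1 or more of the 4 conditions, and 57 of these lacked a value and were dropped. Names came from RefSeq accessions (GRCm38.p6, 18710 probes) or from the files, and the brightest probe stood for a gene. On the 2 h arrays the median Cy5 signal was 124.3 to 126.4 (negative controls 71.6 to 72.9) and the median Cy3 signal 124.1 to 125.6 (negative controls 101.3 to 103.3), so dim genes carry little signal over background. The number of arrays limits the precision.

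Genes were counted as higher or lower where both arrays passed a log2 ratio of 1 or of 0.5. Named were the 25 highest, the 12 lowest with a symbol, list members past a size rule or defining the list, and genes with saturated, dim or disagreeing probes. Others are said to be chosen after their values were seen. The test of 2 h against 1 h and 4 h used lmFit and eBayes (two-sided, Benjamini-Hochberg) and was tested on simulated data. It measures only the spread between these samples, since the labels name no separate cultures. Whether 1 untreated extract served all arrays is not stated. The comparison, the gene lists and the markers were chosen with earlier results of these data known. Same-numbered arrays deviated together across times (r of 0.783 to 0.856 across genes), and the number is the dye orientation. No gene past a size rule had untreated RNA below background on both 2 h arrays, so no bounds were needed. Alternatives were other background corrections, normalizations, filters, probe rules, single arrays, the dye effect removed, the deposited table and other motif and time rules.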

Additional observations from a re-analysis of the deposited data

Results flagged for a closer look

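Nr4a1, an orphan nuclear receptor gene, stood on opposite sides of the untreated level at neighbouring times, at -0.90 at 2 h (-0.82 and -0.98 on the arrays) and at 1.64 at 1 h (1.67 and 1.61). Slco3a1, an organic anion transporter gene, was at 0.556 at 2 h (0.50 and 0.61) and at -0.0737 at 1 h (-0.09 and -0.06). In both genes each array of one time lay above 0 and each array of the other below, and the difference was not tested. The arrays of a time carry the same RNA.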

How the results depend on the processing

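The counts of genes by size depended on the processing. Main counts were 40 higher and 0 lower at 2-fold, and 131 and 25 at the smaller size. The scanner's processed signals gave 82 higher, 4 lower, 234 and 92, and so did the authors' value table of the same signals. Median centring gave 21 higher, 43 at the smaller size and 4 lower there. Without background correction 15 genes were lower at the smaller size, as with the mean of a gene's probes, while normexp with offset 16 and removal of the dye effect each left 1 gene 2-fold lower. Single arrays gave 42 to 67 higher and 4 to 16 lower at 2-fold, and 203 to 232 and 68 to 84 at the smaller size. A step of 0.5 left 1 gene (Cebpd) highest at 2 h in place of 5, and a wider form of the motif (any 5 bases between 3 G and 2 C) lay in 93.3% of the windows, beside 56.3% of all. The cause of these shifts was not tested. The test of 2 h against 1 h and 4 h called 0 genes under every alternative run, the replicate block included (0 higher and 0 lower). With that block 454 and 444 of 21275 genes had an unadjusted p under 0.05 by limma, together less than a share of 0.05. In all, 172 genes were followed, those past a size rule and list members with a mean of at least 0.5 in either direction. The value moved by at least the standard deviation of its 2 arrays for 105 of them with processed signals and 112 with median centring. It did so for 77 with offset 16, 64 without background correction and 56 with the mean of probes. This standard deviation is larger than the ± value given in the text. Under any alternative run 0 of the followed genes changed sign. Dim genes are the least certain. No alternative for bounds was run, since there were none.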

Other observations

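MHC class I genes, which present peptides to cytotoxic T cells, were looked at as a family after their values were seen. Of 18 measured H2-K, D, Q, T and M genes, 7 were at least 0.5 higher on both arrays at 2 h, beside 0.616% of all genes. The family median was 0.42 and the range -0.05 to 0.77. H2-K1 stood at 0.68, 0.77 and 0.76 at 1, 2 and 4 h and H2-D1 at 0.51, 0.64 and 0.58. By their brightest probes H2-Q10 (0.63), H2-Q7 (0.62), H2-T23 (0.61), H2-Q1 (0.59) and H2-Q5 (0.59) lay within a narrow span at 2 h. Dimmer probes of H2-Q10 read 0.36, 0.03, 0.14 and -0.01 at 2 h, that of H2-Q1 0.32 and that of H2-T23 0.65. These genes are near-identical copies, so their probes may read the same transcripts, and 7 genes need not be 7 separate changes. H2-T10 and H2-T22 had another order, at 0.14, 0.49 and 0.99 and at 0.09, 0.35 and 0.69.

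Among genes whose 2 h value lay above both neighbouring times, Parp14, a poly(ADP-ribose) polymerase family gene, was at -0.01, 0.73 and 0.19, the prostaglandin receptor gene Ptger2 at 0.36, 0.79 and 0.39, and the zinc finger gene Hivep2 at 0.60, 0.94 and 0.42. A second, dimmer probe of Parp14 read 0.11, 0.06 and 0.14. Ptger2 was dim, with untreated RNA well above background on 5 of the 6 arrays. The GTPase gene Irgm1 was at -0.11, 0.14 and -0.26. None passed the test of 2 h against 1 h and 4 h by limma, where the adjusted p of Parp14 was 1.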
